A study of Mus musculus with 20 samples.

Results

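The intervals described here were those whose DNA methylation signal at least doubled between birth and weaning age in both neurons and non-neurons of the mouse hypothalamus. Methylation had been profiled over the genome in inbred male C57BL/6 mice at postnatal day 21 (P21) and at postnatal day 0 (P0), in nuclei sorted by NeuN, a nuclear protein of neurons, into P21 neurons, P0 neurons, P21 non-neurons and P0 non-neurons. Each of the 4 groups held 5 libraries, each from a pool of 2 hypothalami, and no genotype or treatment differed between them. Each library's counts were divided by its median count over the 15147 intervals with at least 20 reads in all 20 libraries, and the scaled values were averaged by group. Of the 50782 intervals listed, 27259 had at least 10 reads in at least 5 libraries. Members were the 1732 of these (6.35%) with a P21/P0 ratio of at least 2 in neurons and of at least 2 in non-neurons. The ratio with age chose the members, so it is given as a description and with no test. Only contrasts that the choice did not use, such as neurons against non-neurons at one age, carry a test. They draw on the same group means, so counts of members called in them are a description.

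In mammals methylation is placed mostly on cytosines that precede guanines. New methylation is laid down by the enzymes Dnmt3a and Dnmt3b, and Dnmt1 copies existing patterns when DNA is replicated. In brain Dnmt3a activity is high in the weeks after birth, when neurons have left the cell cycle while glial cells still multiply and mature. The assay, methylation-specific amplification (MSA-seq), reads this mark at CCCGGG sites. SmaI first cuts unmethylated sites to blunt ends, XmaI then cuts the remaining methylated ones, and adaptors join only the XmaI ends. Amplification of an interval thus needs methylation of the site at each end on 1 molecule. Its read count stands for methylation on a relative scale, not for a percent of molecules, and it also depends on interval length and amplification. In sorted nuclei a full gain in some cells and a partial gain in all cells cannot be told apart. NeuN-negative nuclei pool several cell types, among them astrocytes, oligodendrocyte lineage cells, microglia, vascular and ependymal cells. Their make-up was not measured here and may differ between P0 and P21.

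Libraries held 5663740 to 9998110 reads. Intervals are given by their position in the deposited table, whose reads were mapped to the mm9 build, and no gene, promoter or exon is assigned to them. The sorted cell types were not set against marker genes here, for the same reason. On the third principal component of log2 CPM (5.06% of the variance), replicates 1 to 3 of each P0 group had lower scores than replicates 4 and 5. In P0 neurons the scores were -44.3, -43.6 and -30.2 for replicates 1 to 3, against 18.9 and 15.7 for replicates 4 and 5. In P0 non-neurons they were 16.2, 8.45 and -9.22, against 27.2 and 42.6. Library preparation is not separated from age in the labels, so that any difference in preparation between P21 and P0 cannot be told apart from age. The series' design gives 5 independent samples per age and does not say whether a neuron and a non-neuron library of the same number came from 1 pool.

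At birth the members were sparsely covered. They took 1.80, 2.09, 1.71, 1.77 and 1.86% of the reads of the 5 P21 neuron libraries, against 0.461, 0.448, 0.426, 0.404 and 0.410% in the P0 neuron libraries. In non-neurons the shares were 1.43, 1.74, 1.38, 1.41 and 1.53% at P21, against 0.512, 0.480, 0.408, 0.363 and 0.429% at P0. The P21 and P0 libraries did not overlap in either cell type, as the choice of members requires, and P21 neurons lay above P21 non-neurons except that non-neuron replicate 2 exceeded neuron replicate 3. The mean share was 1.85 ± 0.146% in P21 neurons and 0.430 ± 0.0244% in P0 neurons (SD, n = 5 each). In P21 and P0 non-neurons it was 1.5 ± 0.148% and 0.438 ± 0.0591% (SD, n = 5 each). The median member held 47 to 73 reads per P21 neuron library, against 8 to 10 per P0 neuron library. Per P21 non-neuron library it held 33 to 43 reads, against 8 to 11 per P0 non-neuron library. At such counts single values at P0 carry a large counting error.

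**Figure D1:**
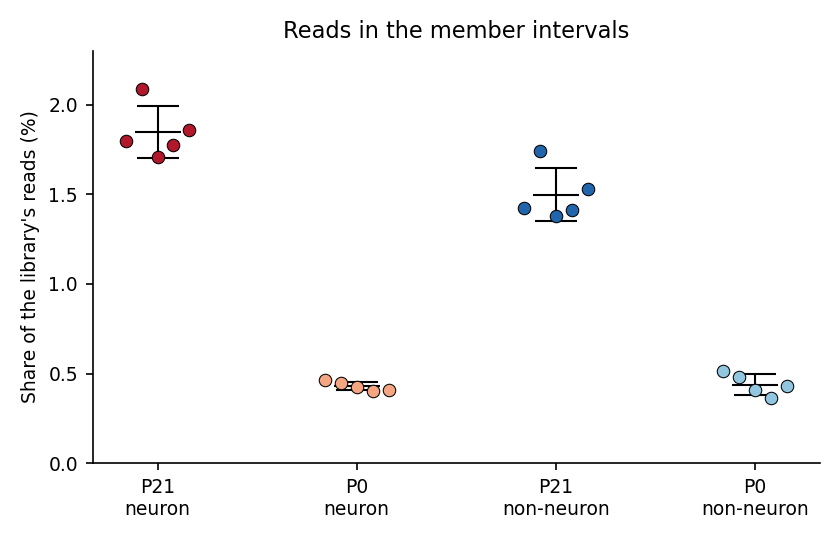
Share of each library's reads (y axis, percent) that fell in the 1732 member intervals, by group (x axis). Points are libraries, and bars give the mean and SD of 5. P21 neuron libraries lie between 1.71 and 2.09%, and P0 neuron libraries between 0.404 and 0.461%.

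In units of the median well-covered interval, the median member stood at 0.195 in P21 neurons and 0.0543 in P0 neurons. In non-neurons it stood at 0.179 at P21 and 0.0558 at P0. For all intervals that passed the filter the medians were 0.314 and 0.278 in neurons and 0.325 and 0.293 in non-neurons. Members thus remained below the typical interval at P21. A P21 level of at least 0.5 in both cell types was found at 155 members (8.95%), against 37.4% of all filtered intervals, and 40 members reached a level of 1. On the P0 libraries alone 868 members had at least 10 reads in 5 libraries, whereas the other 864 passed the filter only through their P21 libraries. The edgeR filter kept 1664 members for testing, and 68 were too sparse. In P0 neurons 2 members had no read in any library, and in P0 non-neurons 5, so their ratios have no finite value.

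The ratios of the 2 cell types had close medians and different tails. The median ratio was 3.13 in neurons, with quartiles of 2.43 and 4.75, and 2.93 in non-neurons, with quartiles of 2.40 and 3.86. Over all filtered intervals the medians were 0.962 and 1.00. The upper tail was longer in neurons, where the 95th percentile of the ratio was 12.4, against 7.28 in non-neurons. The neuronal ratio was the larger one in 904 members, and it was at least double the other in 241, against 52 in which the non-neuronal ratio was at least double. Both ratios reached 3 in 580 members, 4 in 234 and 8 in 32. The members made up 50.6% of the 3426 intervals that doubled in neurons and 59.7% of the 2899 that doubled in non-neurons. In a model of all tested intervals (edgeR's quasi-likelihood test, Benjamini-Hochberg adjusted p under 0.05) 1654 of the 1664 tested members were called higher at P21 in neurons, beside 31% of all tested intervals, and 1619 in non-neurons, beside 28.5%. Calls in both cell types were made at 1616 members, beside 20.2%. All 5 P21 values lay above all 5 P0 values at 1516 members in neurons (beside 23%), at 1346 in non-neurons (beside 17.5%) and at 1256 in both (beside 11.5%). Nothing is read from these counts, since the same contrasts chose the members.

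**Figure D2:**
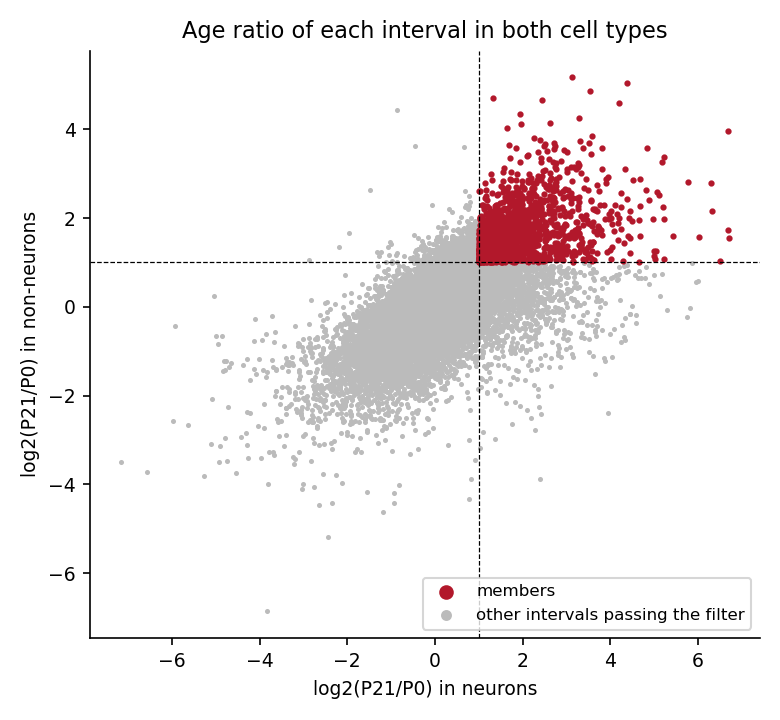
The P21/P0 ratio in neurons (x axis, log2) and in non-neurons (y axis, log2) of intervals that passed the filter. Red points are members and grey points the other intervals, dashed lines mark a ratio of 2, and intervals with a group mean of 0 are not drawn. Members fill the upper right corner, and their neuronal ratios reach further out than their non-neuronal ones.

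The members nearest to the threshold show how it was met. Just inside, chr11:32752786-32755086 had 7.46 ± 1.59 CPM in P21 neurons and 3.44 ± 1.01 in P0 neurons (SD, n = 5 each), a ratio of 2.00, with 2.42 in non-neurons. CPM values use library sizes scaled by the trimmed mean of M values (TMM). The interval chr18:34707271-34708971 entered with a ratio of 2.00 in non-neurons, on 48 unscaled reads in the 5 P21 non-neuron libraries together and 20 in the 5 P0 ones. Just outside lay chr13:102540669-102542636, with 2.27 in neurons and just under 2 in non-neurons (6.23 ± 1.64 CPM at P21 and 3.04 ± 0.808 at P0), and chr16:91858320-91860361, with 2.41 in neurons and just under 2 in non-neurons. Of these 4, chr18:34707271-34708971 was the sparsest.

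Among members above the median read level of tested intervals, the 6 with the largest gain in the cell type that gained less included intervals with the larger ratio in neurons, intervals with nearly equal ratios and 1 with the larger ratio in non-neurons. The interval chr13:53330353-53331276, of 923 bp, had 47.3, 45, 48.8, 40.4 and 49.0 CPM in P21 neurons and 1.21, 0.450, 0.528, 1.89 and 1.52 in P0 neurons. In non-neurons it had 16.2, 26.5, 18.1, 22 and 25.4 CPM at P21 and 3.21, 1.92, 2.18, 0.926 and 1.98 at P0. It was close to empty in every P0 library and covered in every P21 library, at about double the level in neurons. The interval chr9:32351428-32352485 had 13.6, 14.9, 11.2, 14.8 and 16.4 CPM in P21 neurons and 2.94, 0.600, 1.58, 1.03 and 0.607 in P0 neurons. Its values were 24.0, 38.7, 29.9, 26.8 and 27.0 CPM in P21 non-neurons and 1.07, 0.802, 2.18, 1.39 and 1.98 in P0 non-neurons. Here the ratio was 9.72 in neurons and 19.2 in non-neurons, P21 non-neurons lay above P21 neurons in every library, and no P21 library of either cell type overlapped a P0 library.

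The interval chr9:20839609-20840797 had 97.4, 109, 94.5, 92.8 and 91.0 CPM in P21 neurons and 2.59, 2.55, 2.29, 1.89 and 3.03 in P0 neurons, against 12.1, 13.2, 7.17, 9.73 and 9.98 in P21 non-neurons and 0.764, 1.28, 1.91, 0.617 and 0.720 in P0 non-neurons. It was nearly absent at P0 in both cell types, with ratios of 36.0 and 9.67, but ended far higher in neurons. Most unequal was chr3:84469581-84470384, with 192, 160.0, 202, 194 and 201 CPM in P21 neurons and 1.21, 2.10, 3.34, 2.40 and 1.97 in P0 neurons, against 7.53, 6.88, 9.52, 6.39 and 14.0 in P21 non-neurons and 1.38, 0.962, 1.09, 1.85 and 0.900 in P0 non-neurons. Its ratios were 78.7 in neurons and 6.97 in non-neurons. By contrast chr2:115845505-115846922 had nearly equal ratios of 9.67 and 8.91, with 24.7, 23.1, 21.1, 21.9 and 26.9 CPM in P21 neurons and 2.77, 1.95, 1.76, 2.57 and 2.12 in P0 neurons. In non-neurons it had 13.7, 16.6, 18.1, 19.2 and 21.6 CPM at P21 and 1.83, 0.642, 2.59, 3.40 and 1.26 at P0, so that neurons and non-neurons lay close at each age. Equal ratios at unequal levels were found at chr7:86642731-86643606, with ratios of 6.78 and 7.06. It had 40.4, 36.5, 35.3, 35.7 and 39.0 CPM in P21 neurons and 6.75, 3.9, 7.21, 3.78 and 3.79 in P0 neurons. In P21 non-neurons it had 1.53, 2.11, 1.24, 1.67 and 2.23 CPM and in P0 non-neurons 0.153, 0.160, 0.408, 0.309 and 0.180, on 8 reads in all, so its non-neuronal ratio rests on very few reads at P0.

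The 3 members with the most even gain among those at least 4-fold up in both cell types were chr4:47227102-47228003, chr9:7732686-7734102 and chr2:105521638-105522213. At chr4:47227102-47228003 P21 neurons had 19.4 ± 1.92 CPM and P0 neurons 4.37 ± 1.93, and P21 non-neurons had 20.1 ± 2.57 CPM and P0 non-neurons 4.50 ± 1.49 (SD, n = 5 each). At chr9:7732686-7734102 the values were 21.3 ± 2.65 and 4.50 ± 1.17 CPM in P21 and P0 neurons and 20.3 ± 3.54 and 4.59 ± 1.16 CPM in P21 and P0 non-neurons. Neurons and non-neurons overlapped at each age in both intervals. The third, chr2:105521638-105522213, had ratios of 4.56 and 4.69 but was lower in neurons at both ages, at 15.2 ± 2.83 against 54.7 ± 3.94 CPM in non-neurons at P21 and 3.09 ± 1.15 against 11.4 ± 0.981 CPM at P0.

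The 4 members with the most reads split into 2 kinds. At chr8:122650850-122651548 all libraries followed their group, with 268, 193, 267, 247 and 250.3 CPM in P21 neurons and 51.2, 41.7, 51.4, 48.9 and 52.8 in P0 neurons. P21 non-neurons had 95.8, 101, 140.2, 111 and 137 CPM and P0 non-neurons 56.3, 51.2, 62.6, 47.5 and 48.4. At chr1:38266703-38267507 neurons had 206, 153, 216, 219 and 182 CPM at P21 and 57.3, 52.5, 73.3, 64.7 and 82.0 at P0. Non-neurons had 79.5, 81.0, 117, 110.0 and 109.9 CPM at P21 and 49.2, 43.8, 44.0, 47.2 and 39.2 at P0. In both of these intervals every P21 value lay above every P0 value of its cell type.

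The other two of the 4 parted the P0 libraries by replicate number instead. The interval chr2:172974973-172977848, of 2875 bp, had 198, 239.7, 206, 203 and 237 CPM in P21 neurons and 157, 147, 130.5, 3.78 and 3.94 in P0 neurons. P21 non-neurons had 225, 265, 232, 202 and 184 CPM and P0 non-neurons 159, 154, 129.6, 2.78 and 5.40. P0 replicates 1 to 3 were well covered in both cell types and replicates 4 and 5 were almost empty. The interval chr10:80452703-80453662 did the same, with 78.0, 85.1, 65.1, 3.6 and 2.88 CPM in P0 neurons and 90.4, 86.6, 71.9, 4.32 and 2.88 in P0 non-neurons, while P21 neurons ranged from 151 to 165 and P21 non-neurons from 119 to 156 CPM. The rule averages over the 5 libraries. Without P0 replicates 4 and 5 neither interval met it.

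This pattern was counted after it had been seen. P0 replicates 4 and 5 were on average at least 5-fold below replicates 1 to 3 in both cell types at 16 members, of 40 filtered intervals with that pattern, and at least 5-fold above them at 2 members, of 3. A further example was chr5:122459164-122461152, with 65.6, 75.9 and 62.6 CPM in P0 neuron replicates 1 to 3 and 6.86 and 9.25 in 4 and 5, and 90.2, 99.8 and 78.4 and 8.95 and 11 in the P0 non-neurons. At chr13:93474280-93476456 the same sets had 68.3, 53.7 and 60.1 and 1.54 and 2.73 CPM in P0 neurons, and 56.6, 60.5 and 60.3 and 2.32 and 1.26 CPM in P0 non-neurons. Without P0 replicates 4 and 5 the rule was met by 1755 intervals, of which 1454 were members, and 6 of the 16 members with the pattern still met it. Of these, chr10:119437166-119440163 had 10.4, 10.2 and 7.56 CPM in P0 neuron replicates 1 to 3. The others were near the read floor at P0. They had at most 0.953 CPM in any P0 library or were too sparse to be tested. The labels give no difference between P0 replicates 1 to 3 and P0 replicates 4 and 5. Over all members, the share of reads in P0 replicates 4 and 5 was 0.404 and 0.410% in neurons and 0.363 and 0.429% in non-neurons, close to the other P0 libraries and far below the P21 ones.

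The contrast of neurons with non-neurons was not itself used to choose the members. It is made of the same 4 group means as the ratios, so the shares of members called are a description. The contrast was tested at each age in a quasi-likelihood model over all 26679 tested intervals (edgeR, TMM scaling, Benjamini-Hochberg adjusted p under 0.05). Most members did not pass for cell type at either age: 1229 of 1664 (73.9%), beside 62.3% of all tested intervals. At P0, 68 members were higher in neurons (4.09%, beside 6.92% of all tested intervals) and 51 were lower (3.06%, beside 2.86%). At P21, 352 were higher in neurons (21.2%, beside 20.8%) and 53 were lower (3.19%, beside 15%). With a difference of at least 2-fold as well, 233 were higher (14.0%, beside 9.99%) and 24 were lower (1.44%, beside 3.31%). Other gaining intervals are given at P21 by adjusted p alone. They were sorted by the same 2 ratios, which by definition favour one direction at P21, so their shares are a description too. Of 1540 tested intervals that doubled in neurons with a ratio between 0.5 and 2 in non-neurons, 70.3% were higher in neurons and 0.779% lower. Of 1094 that doubled in non-neurons with a ratio between 0.5 and 2 in neurons, 1.83% were higher in neurons and 18.8% lower. The median log2 difference of the members was 0.12 at P21 and 0.03 at P0, beside -0.06 and 0.01 over all tested intervals.

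Calls depend on read level and on scaling, so the members were also set beside intervals of similar mean level over all 20 libraries. Members were chosen to rise with age, so these classes do not match the level at P21 or at P0 alone. Ranked by mean level, 663 tested members fell in the lowest of 4 equal level classes of tested intervals, 738 in the second, 236 in the third and 27 in the highest. The share lower in neurons at P21 was 2.56%, 2.57% and 6.36% of members in the first 3 classes, beside 10.9%, 14.2% and 15% of all tested intervals in those classes. The share higher in neurons was 16%, 21.1% and 30.5%, beside 11.9%, 18.0% and 25.9%. At P0 the share higher in neurons was 1.66%, 3.66% and 9.32% of members in these classes, beside 1.23%, 3.34% and 9.52%, and the share lower was 1.66%, 1.90% and 8.90%, beside 2.04%, 2.82% and 3.42%. Of the 27 members in the highest class, 18 were higher and 2 lower in neurons at P21 (66.7% and 7.41%, beside 27.5% and 19.9%). At P0, 8 of them were higher and 5 lower (29.6% and 18.5%, beside 13.6% and 3.16%). With upper-quartile scaling, which set the median P21 difference of all tested intervals to -0.25, 294 members were higher and 145 lower (17.7% and 8.71%, beside 16% and 33.3% of all). The median scaling of the rule gave 299 higher and 132 lower (18.0% and 7.93%, beside 16.3% and 31.3% of all), and set the median of all to -0.23. The split into higher and lower thus depends on scaling: 86.9% of the members called at P21 were higher in neurons with TMM, 67.0% with upper-quartile factors and 69.4% with the median scaling. At P0 the same shares were 57.1%, 46.5% and 46.5%, so that at P0 the balance of the 2 directions turned with the scaling. A fit of the 2 P0 groups alone kept 833 members for testing and called 34 higher and 28 lower (4.08% and 3.36%, beside 7.85% and 3.95% of all intervals in that fit).

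Of the 352 members higher in P21 neurons, 57 had already been higher at P0, 13 had been lower and 282 had not been called. These were 3.43%, 0.781% and 16.9% of the tested members, beside 5.95%, 0.506% and 14.4% of all tested intervals. Of the 53 lower in P21 neurons, 19 had been lower at P0 (1.14% of the tested members, beside 1.42% of all tested intervals) and 34 had not been called (2.04%, beside 13.6%). The median member held only 8 to 11 reads per P0 library, and 864 members passed the filter only through their P21 libraries. A missing call at P0 thus does not show that the cell types were alike at birth. The P21 and P0 comparisons share no library. Across the 1664 tested members, some of which share a cut site, the log2 differences at P21 and P0 correlated at r = 0.416, beside 0.458 across all tested intervals. The neuron minus non-neuron difference changed with age at 160 members by the interaction of the model, upwards at 152 (9.13%, beside 10.9%) and downwards at 8 (0.481%, beside 3.24%). It is made of the 2 contrasts that chose the members and is given as a description.

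**Figure D3:**
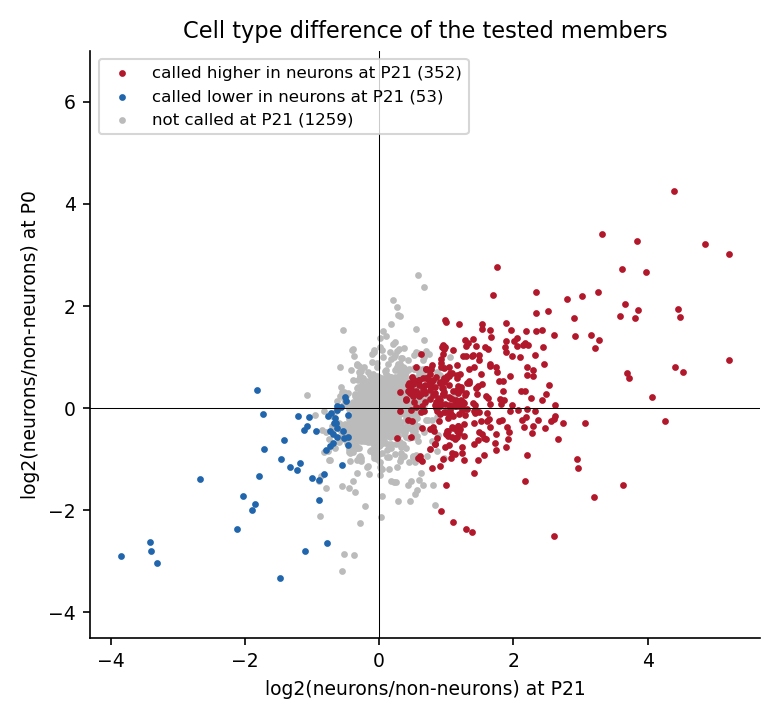
The log2 ratio of neurons to non-neurons at P21 (x axis) and at P0 (y axis) of the 1664 tested members. Red points were called higher in neurons at P21 (352), blue points lower (53), and grey points were not called. Of the 352 red points, 282 were not called at P0, where the members were sparsely covered.

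The members with the largest excess in neurons at P21, among those with fully separated groups and a read level above the median, were well covered in neurons and nearly empty in non-neurons. The interval chr5:28786478-28787412 averaged 37.6 ± 4.39 CPM in P21 neurons, against 0.979 ± 0.747 CPM in P21 non-neurons (SD, n = 5 each). This was a log2 difference of 5.22 ± 0.25 (SE, edgeR adjusted p = 7.46e-21). At P0 it had 1.66 ± 0.567 CPM in neurons against 0.177 ± 0.163 in non-neurons, where it rests on 6 reads in 5 libraries. The interval chr15:101833492-101834550 averaged 42.5 ± 3.37 CPM in neurons against 1.11 ± 0.384 CPM in non-neurons of P21 (log2 difference 5.22 ± 0.19, SE, edgeR adjusted p = 2.06e-24), against 0.490 ± 0.268 and 0.245 ± 0.128 CPM at P0, where it did not pass. At chr12:119768027-119768594 the means were 54.2 ± 6.91 and 1.86 ± 0.490 CPM in P21 neurons and non-neurons and 7.40 ± 2.09 and 0.765 ± 0.374 at P0. In non-neurons all 3 met the doubling at a level far below the neuronal one.

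Lower in neurons at both ages were chr8:87230622-87231875, chr2:105520789-105521638 and chr1:122500617-122501057. The interval chr8:87230622-87231875 had 4.31, 2.02, 3.79, 3.30 and 4.07 CPM in P21 neurons, against 39.3, 67.9, 49.1, 47.5 and 45.6 in P21 non-neurons. At P0 it had 0.692, 1.05, 0.352, 0.515 and 0.152 CPM in neurons, against 4.59, 2.73, 3.95, 5.56 and 4.50 in non-neurons. The log2 difference was -3.85 ± 0.18 at P21 and -2.90 ± 0.34 at P0 (SE, edgeR adjusted p = 5.31e-21 and 1.43e-08), with non-neurons above neurons in every library at both ages. The interval chr2:105520789-105521638 averaged 7.72 ± 1.55 CPM in neurons against 82.0 ± 9.96 CPM in non-neurons at P21, and 1.97 ± 0.633 against 12.2 ± 1.87 CPM at P0 (log2 difference -3.41 ± 0.14 at P21 and -2.63 ± 0.20 at P0, SE). It shares a cut site with chr2:105521638-105522213, the evenly gaining member described above that was also lower in neurons at both ages (log2 difference -1.85 ± 0.13 at P21 and -1.88 ± 0.19 at P0, SE). The interval chr1:122500617-122501057 had 4.15 ± 1.09 and 41.6 ± 5.24 CPM at P21 and 1.37 ± 0.534 and 11.3 ± 2.85 CPM at P0 in neurons and non-neurons.

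At P0 the largest differences above the median level belonged to several of the same intervals. Higher in P0 neurons were chr7:86642731-86643606 (log2 difference 4.25 ± 0.34, SE, edgeR adjusted p = 6.18e-13), chr12:119768027-119768594 (3.22 ± 0.27) and chr5:28786478-28787412 (3.03 ± 0.54). Lower were chr8:123073824-123074613, chr1:122500617-122501057 and chr8:87230622-87231875. The interval chr8:123073824-123074613 narrowed with age: it had 13.9, 10.3, 12.8, 9.89 and 14.6 CPM in P21 neurons against 34.2, 30.5, 38.2, 36.8 and 30.9 in P21 non-neurons, and 2.59, 1.65, 1.06, 0.343 and 1.52 CPM in P0 neurons against 15.3, 12.3, 17.3, 13.9 and 14.4 in P0 non-neurons. Its log2 difference was -1.48 ± 0.15 at P21 and -3.34 ± 0.23 at P0 (SE, edgeR adjusted p = 4.79e-11 and 3.3e-15). Neurons and non-neurons did not overlap at either age.

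Members were long. Their median length was 1695 bp, with quartiles of 1211 and 2101 bp, beside 1194 bp (523 and 1995 bp) for all filtered intervals. They made up 2.51% of filtered intervals of 60 to 200 bp, 2.43% of those of 401 to 800 bp, 13.3% of those of 1601 to 2000 bp and 3.79% of those of 2501 to 3000 bp. The age change of all tested intervals moved with length as well: its median was 0.53 in neurons and 0.43 in non-neurons at 1601 to 2000 bp, while intervals of 401 to 800 bp had medians of -0.32 and -0.33 (log2). With TMM sizes in place of the rule's median scaling, 2017 intervals met the ratios. With TMM sizes and each library's length trend removed, 1439 did, of which 1246 were members (71.9% of members). These 1439 made up 2.08% at 60 to 200 bp, 4.37% at 401 to 800 bp, 6.47% at 1601 to 2000 bp and 5.22% at 2501 to 3000 bp. Intervals at or below 0.5 in both cell types had another profile, with 7.87% at 401 to 800 bp and 3.14% at 1601 to 2000 bp.

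**Figure D4:**
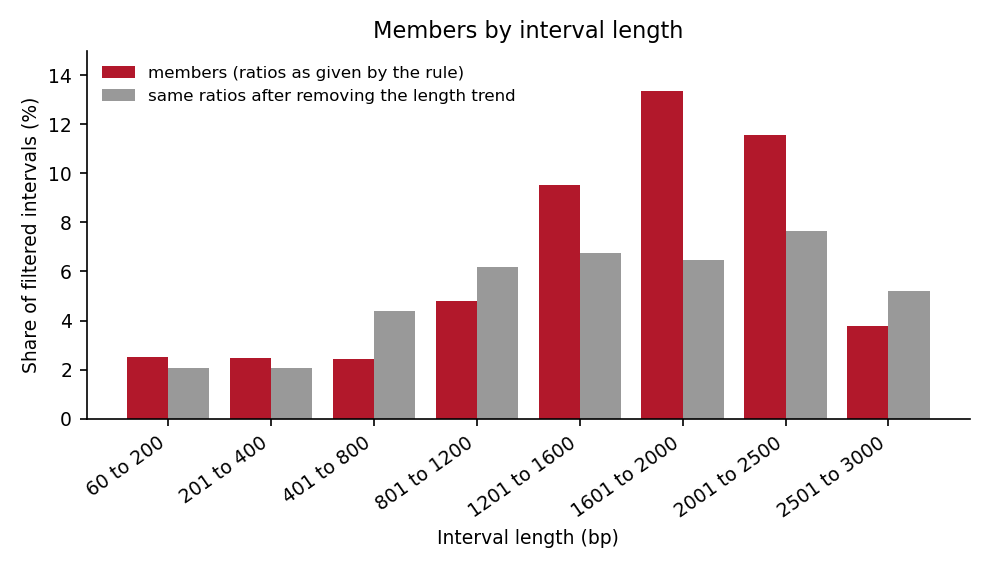
Share of filtered intervals (y axis, percent) that are members, by interval length (x axis, bp). Red bars use the ratios of the rule. Grey bars use ratios from TMM library sizes with each library's trend with length removed, so scaling and length correction change together. The red peak at 1601 to 2000 bp (13.3%) stands at 6.47% in grey.

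Set within their own length class, the median member had a higher rank at P21 than at P0 in each of the 8 classes. Of intervals of 1601 to 2000 bp, the median member stood at the 40.8 percentile in P21 neurons and the 21.1 percentile in P0 neurons. In non-neurons of that length it stood at 42.5 at P21 and 18.7 at P0. At 401 to 800 bp, where the median filtered interval had its highest level, the percentiles were 20.5 and 6.84 in neurons and 17.5 and 6.30 in non-neurons, at P21 and P0. At 60 to 200 bp they were 45.8 and 3.01 in neurons and 24.1 and 2.71 in non-neurons, on 58 members, so the rank at P21 did not follow length in 1 direction. The rule favours a low level at P0, so these ranks are a description.

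Members were spread over all chromosomes. Their share of filtered intervals was lowest on chromosome 11 (4.14%, 89 of 2151) and chromosome 17 (4.58%, 65 of 1418), and among autosomes highest on chromosome 3 (9.19%, 100 of 1088). The X chromosome had 53 of 606 (8.75%) and the Y chromosome 3 of 13. Members also lay further from other intervals: 40.2% of them shared a cut site with another listed interval, beside 52.7% of all filtered intervals. Those that shared none had a median gap of 29862 bp to the nearest one, beside 19814 bp. Among the intervals most like them, 55.5% of the 1615 that doubled in neurons with a ratio between 0.5 and 2 in non-neurons shared a site. Of the 1155 that doubled in non-neurons with a ratio between 0.5 and 2 in neurons, 38.5% did. These classes had median lengths of 1313 and 1649 bp.

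Members that did have neighbours tended to stand beside other gaining intervals. Intervals that touch share 1 site and are not independent. Of the 1732 members, 161 (9.30%) touched another member, beside 2.20% of all filtered intervals that touched a member, 6.75% of those that doubled in neurons with a ratio between 0.5 and 2 in non-neurons and 0.599% of the 1336 at or below 0.5 in both cell types. They formed 73 runs, 58 of 2 members and 15 of 3. The rule used a member's own counts and not those of its neighbour. The 428 tested non-members that touched a member had a median age change of 0.54 in neurons and 0.43 in non-neurons (log2), beside -0.07 and -0.10 for all 13425 tested non-members that touch a listed interval. Of the 428, 269 (62.9%) had changes above 0 in both cell types, beside 33.9%, and 124 (29.0%) were called higher at P21 in both, beside 12.3%. Beyond touching intervals the medians were lower, with no steady order past 5000 bp. Non-members with a gap of 1 to 2000 bp to a member had medians of 0.30 and 0.07, those at 2001 to 5000 bp 0.08 and 0.03, and those at 10001 to 20000 bp -0.06 and -0.10, in neurons and non-neurons. At 20001 to 50000 bp they were 0.00 and -0.08. Calls in both cell types were made at 14.6% at 1 to 2000 bp, 16.7% at 2001 to 5000 bp and 18.4% at 5001 to 10000 bp. Further out the share was 10.8% at 10001 to 20000 bp, 15.8% at 20001 to 50000 bp and 13.6% at 50001 to 100000 bp. Past the touching intervals it thus had no steady order with distance. After removal of the length trend the touching intervals had 0.36 and 0.29.

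**Figure D5:**
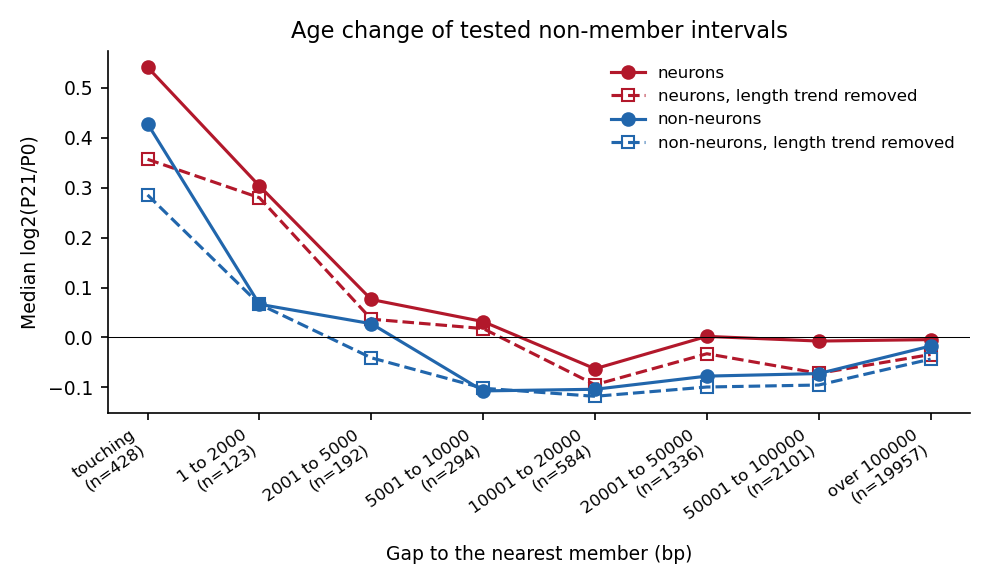
Median age change (y axis, log2 of P21 over P0) of tested non-member intervals by their gap to the nearest member (x axis, bp, with the number of intervals). Red is neurons and blue non-neurons, filled points with solid lines are the TMM fit and open squares with dashed lines the fit with the length trend removed. Touching intervals stand highest, at 0.54 in neurons and 0.43 in non-neurons.

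The touching intervals also had fewer reads than others, with a median of 2.45 mean log2 CPM beside 3.50. Within the lowest of the 4 classes of read level, non-members that touched a member had a median age change of 0.65 in neurons and 0.44 in non-neurons, beside -0.12 and -0.21 for those that touched only non-members. In the third class the medians were 0.60 and 0.64, beside 0.08 and 0.03. In the highest class they were 0.04 and 0.07, beside -0.25 and -0.24. Members' neighbours had the higher medians in each of these classes.

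Runs of 3 members included the first 2 of the strongest members. On chromosome 13, chr13:53330353-53331276 lay between chr13:53330087-53330353 and chr13:53331276-53331478. The first of these flanks had 3.29 ± 1.20 CPM in P21 neurons and 0.755 ± 0.537 in P0 neurons, and 2.91 ± 0.255 CPM in P21 non-neurons and 1.23 ± 0.689 in P0 non-neurons (SD, n = 5 each). The second had 7.65 ± 0.988 CPM in P21 neurons and 0.624 ± 0.372 in P0 neurons, and 5.04 ± 0.623 CPM in P21 non-neurons and 1.27 ± 0.717 in P0 non-neurons. Both flanks had their higher level at P21 in each cell type, at a lower level than the interval between them. On chromosome 9, chr9:32351428-32352485 lay between chr9:32350337-32351428 and chr9:32352485-32354156. The lower-coordinate one had 4.74 ± 0.584 CPM in P21 neurons and 0.946 ± 0.577 in P0 neurons, and 6.53 ± 2.29 CPM in P21 non-neurons and 1.75 ± 0.889 in P0 non-neurons. The higher-coordinate one had 7.99 ± 0.514 CPM in P21 neurons and 0.577 ± 0.440 in P0 neurons, and 4.02 ± 0.693 CPM in P21 non-neurons and 0.847 ± 0.367 in P0 non-neurons. At P21 the middle interval was lower in neurons (log2 difference -1.05 ± 0.17, SE, edgeR adjusted p = 3.29e-06) and the higher-coordinate one higher (0.99 ± 0.24, adjusted p = 0.000994), while the lower-coordinate one did not pass (-0.45 ± 0.26, adjusted p = 0.17) and its cell types overlapped. These 2 runs were picked from the 15 of equal length because they hold members already named.

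Touching members also resembled each other in the difference between cell types. The rule set no threshold on this difference, but it is made of the same group means. Over 81 pairs of touching members with both intervals tested, the log2 differences at P21 had the same sign in 64 (79.0%) and correlated at r = 0.846. Over 6711 touching pairs in which neither was a member, 73.1% had the same sign and r was 0.660. Both intervals were called at P21 in 30 member pairs, 29 of them in the same direction (96.7%, beside 91.3% of 1625 such pairs of non-members). At P0 the member pairs had the same sign in 57 of 81 (r = 0.631, beside 0.521 for pairs of non-members). Paired intervals share a cut site and their libraries, so these values describe the pairs and are not a test.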

How the data were processed

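Genomic DNA of sorted nuclei was digested with SmaI and XmaI, ligated to adaptors, amplified, sheared and sequenced on an Illumina HiSeq, per the labels' protocols. FastQC 0.10.1, cutadapt and Bowtie 0.12.9, with mm9 as the build, are listed in the submitters' processing notes. The authors deposited raw read counts per SmaI/XmaI interval, with the counting method not given in the sources used here. Table columns were matched to libraries by age, cell type letter (G read as glia, the non-neurons) and replicate number.

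From these counts the members were found by the stated rule. The members and lists were chosen with earlier results of these data known. For tests, 26679 intervals passed filterByExpr in edgeR 4.0.16 (minimum count of 10 and total of 15). Library sizes were scaled by TMM, and glmQLFit (robust) and glmQLFTest in R 4.3.3 fitted the 4 group means over the 20 libraries. P-values were adjusted by Benjamini-Hochberg over all tested intervals. The standard error is the log2 fold change divided by the square root of F. The common biological coefficient of variation was 13.8%. The functions were tested on simulated counts. Over 40 pairs of replicates chi-square statistics per degree of freedom ran from 2.00 to 9.31, so no pair agreed within counting error. Reads carry no molecular identifiers, and p-values measure the spread between these libraries.

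Named members were taken by rule among members above the median level: the 6 largest by the smaller ratio, the 4 with most reads, the 3 largest cell type differences in each direction at each age with separated groups, and the 3 most even gains of at least 4-fold. Those 2 nearest the threshold on each side and the longest run of touching members (15 runs tied) were added. Alternatives were RLE, total and upper-quartile scaling, the rule's median scaling, removal of each library's length trend (lowess, span 0.2), other filters and ratios, DESeq2 1.42.0, limma-voom (limma 3.58.1), blocking on the replicate number, and omission of each library. The length trend was removed on TMM sizes. Leaving out P0 replicates 4 and 5 was added after the data were seen. Sequence content, gene annotation and gene lists need an mm9 genome or annotation and were not analysed here. Plots were drawn with matplotlib 3.10.9.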

Additional observations from a re-analysis of the deposited data

Results flagged for a closer look

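Among the named intervals, leaving out those named only as part of a run, 100 groups of 5 libraries were checked for a library far from the other 4. The check took in the intervals just outside the threshold and the share of reads in members. Chance flags about 1 in 20 such groups, or 5 here, and 4 were found. P21 neuron replicate 2 was the lowest of its group at chr3:84469581-84470384 (160.0 CPM) and at chr8:122650850-122651548 (193 CPM). P0 non-neuron replicate 2 was the lowest at chr1:122500617-122501057 (6.42 CPM), and P0 neuron replicate 2 was the highest at chr4:47227102-47228003 (7.80 CPM). All are replicates numbered 2, of 3 different groups.

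The age change differed between neurons and non-neurons (interaction of the model, edgeR adjusted p under 0.05) at 8 of the named members, leaving out those named only as part of a run. The rule required a doubling in both cell types but not an equal one. The interaction passed upwards at 9.13% and downwards at 0.481% of tested members, beside 10.9% and 3.24% of all tested intervals. The neuronal change was the larger one by 4.28 on the log2 scale at chr15:101833492-101834550, 3.59 at chr3:84469581-84470384, 2.04 at chr9:20839609-20840797, 1.96 at chr13:53330353-53331276, 1.86 at chr8:123073824-123074613, 1.63 at chr12:119768027-119768594 and 1.18 at chr8:122650850-122651548. It was the smaller one at chr2:105520789-105521638, with a difference of -0.78. Of the run members described, chr13:53331276-53331478 (1.59) and chr9:32352485-32354156 (1.5) also passed. Several of these members were named for a large cell type difference at one age, and the interaction is made of the contrasts that chose the members, so the values are a description.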

How the results depend on the processing

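The number of intervals meeting the rule was 3065 with library totals alone, 2641 with no filter beyond 1 read, 3899 at a ratio of 1.5 and 580 at a ratio of 3. With TMM sizes, RLE factors, upper-quartile factors, the length trend removed, 20 reads in 5 libraries or group medians it was between 1438 and 2017. Leaving out 1 library gave 1625 to 1788, and 1228 members met the rule every time. Members sharing a site with another numbered 371 with library totals and 141 to 174 without 1 library. Tested intervals touching a member with changes above 0 in both cell types, members included, numbered 424, and 426 to 441 without 1 library.

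At P0 with only the 2 groups compared, 34 members were higher in neurons and 28 lower (4.08% and 3.36%, beside 7.85% and 3.95% of all). At an adjusted p of 0.01 these were 41 and 33. At P21, members lower in neurons numbered 145 with upper-quartile factors (8.71%, beside 33.3% of all tested intervals). With the median scaling of the rule they numbered 132 (7.93%, beside 31.3%). With the length trend removed they numbered 86 (5.17%, beside 20.1%), and at an adjusted p of 0.01, 32. All tested intervals thus shifted with the scaling as well. The cause of these shifts was not tested. Shares of all tested intervals at 0.01 are not given here. Without 1 library, P0 calls ran 54 to 77 higher and 39 to 54 lower, and P21 calls 319 to 369 higher and 41 to 58 lower. Deviations of same-numbered neuron and non-neuron libraries of one age correlated at r = -0.00701 to 0.322. Same-numbered P21 and P0 libraries of one cell type, which cannot share a pool, gave r = -0.0831 to 0.123. These values do not settle whether same-numbered libraries of one age shared a pool, and the numbers were not taken as pairs. A replicate block also ties P21 and P0 libraries of the same number, so it is not a paired fit within one age. With it, 68 members were higher and 55 lower at P0, and 365 and 58 at P21.

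Of 26 called cell type differences of named members, leaving out those named only as part of a run, which were not recomputed, none turned direction and 23 kept their call under all alternatives run. At P21, chr2:115845505-115846922 (0.40) lost its call under 16 alternatives, among them upper-quartile factors (0.21), with a range of 0.21 to 0.48. Without P0 replicates 4 and 5, chr9:20839609-20840797 (0.89) and chr1:38266703-38267507 (0.42) lost their P0 calls. Differences that did not pass were not recomputed singly. Low read counts at P0 limit the ratios of most members.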
